A study of Mus musculus with 6 samples.

Results

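The 6 genes described here are Cebpa, Cebpb, Cebpd, Cebpe, Cebpg and Cebpz, the members of the C/EBP set by gene symbol, chosen as drivers of granulocyte and monocyte differentiation. All 6 had a row among the 47593 genes of the deposited table, and all 6 were among the 12991 genes that passed the filter on low values. The libraries were RNA-seq of mouse femur bone marrow cells selected for c-Kit, the receptor of stem cell factor on early blood cells. There were 3 libraries of cells with a retroviral MLL-AF9 fusion carrying E531R, a substitution in its AF9 part, and 3 of cells with the unchanged fusion, called WT here. Cells of both groups carried the MSCVneo vector, were selected with G418 and were passaged serially in methylcellulose with cytokines. The fusion is therefore expressed from a retroviral vector in cells that keep their own Kmt2a (MLL) and Mllt3 (AF9) genes. The series describes the substitution as one that removes the binding of the corepressor BCOR. The sources used here do not give mouse strain and age, the cytokines or the number of passages. Whether a replicate was a culture or an animal of its own is not in the labels either. The p-values thus reflect how these libraries vary, which may be technical variation.

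C/EBP proteins are basic leucine zipper (bZIP) factors that bind DNA as dimers and switch on genes of granulocytes, monocytes, fat cells and liver. Cebpa is needed for the step to granulocyte and monocyte progenitors, Cebpe for the later granulocyte stages with secondary granules, and Cebpb for emergency granulocyte production and for inflammatory genes of macrophages. Cebpd acts with Cebpb in inflammation, and Cebpg has the zipper but lacks an activation domain, so that it dimerises with and can restrain the others. Cebpz bears the family's name only, being a nucleolar protein of ribosome assembly and not a bZIP factor.

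The genes themselves are compact. On GRCm38, with GENCODE M21 models, Cebpa lies on chromosome 7 (35119293 to 35121928, plus strand), near Cebpg on the same chromosome (35046422 to 35056573, minus strand). Cebpb lies on chromosome 2 (167688915 to 167690418, plus strand), Cebpd on chromosome 16 (15887286 to 15891031, plus strand), Cebpe on chromosome 14 (54710360 to 54712174, minus strand) and Cebpz on chromosome 17 (78919006 to 78937066, minus strand). Cebpa, Cebpb and Cebpd have 1 exon, Cebpe 2 exon blocks, Cebpg 3 and Cebpz 16. The promoters of Cebpa, Cebpb and Cebpg are shown because Cebpa and Cebpb differed most in their response among the members listed in the promoter table, and Cebpg is the genomic neighbour of Cebpa. The windows run from 250 bases before to 50 bases after the RefSeq start on GRCm38.p6, 5′ to 3′ on the gene's strand. Of the 6 genes, 3 matched the table by symbol. Capitals mark TTGCG (the core of a C/EBP site) in Cebpa, TGACG (the core of a cyclic AMP response element) in Cebpb and CCAAT (the CCAAT box) in Cebpg, each searched on both strands.
Cebpa (chr7:35119043-35119342, plus strand): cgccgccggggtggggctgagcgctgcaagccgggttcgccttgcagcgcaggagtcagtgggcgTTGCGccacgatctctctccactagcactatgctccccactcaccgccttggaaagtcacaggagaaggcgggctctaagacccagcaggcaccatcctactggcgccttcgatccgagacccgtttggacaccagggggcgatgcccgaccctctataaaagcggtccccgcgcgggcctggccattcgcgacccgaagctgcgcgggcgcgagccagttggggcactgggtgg
Cebpb (chr2:167688665-167688964, plus strand): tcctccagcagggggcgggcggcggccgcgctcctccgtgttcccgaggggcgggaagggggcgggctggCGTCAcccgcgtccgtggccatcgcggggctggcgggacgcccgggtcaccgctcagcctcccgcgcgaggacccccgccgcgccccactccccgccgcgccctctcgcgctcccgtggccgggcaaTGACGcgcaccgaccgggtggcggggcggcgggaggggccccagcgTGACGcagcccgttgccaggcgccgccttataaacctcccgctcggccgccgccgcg
Cebpg (chr7:35056517-35056816, minus strand): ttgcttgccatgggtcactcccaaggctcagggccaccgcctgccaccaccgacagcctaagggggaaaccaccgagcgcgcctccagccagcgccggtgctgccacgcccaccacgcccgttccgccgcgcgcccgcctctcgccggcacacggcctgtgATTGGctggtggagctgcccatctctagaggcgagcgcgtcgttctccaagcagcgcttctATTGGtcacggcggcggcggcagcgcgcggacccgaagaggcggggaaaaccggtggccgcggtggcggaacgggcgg
The Cebpa window holds 1 match, at bases -185 to -181 from the start, and the mouse gene is known to be activated by its own product through its promoter. The Cebpb window holds 3 matches, the closest to the start at -7 to -3 and the next at -53 to -49, and the Cebpg window 2, both on the opposite strand. Among 27025 genes in the promoter table, 19.5% have TTGCG, 23.0% TGACG and 41.1% CCAAT by the same search. None of the 3 windows holds the fuller C/EBP pattern TTGCNNAA, which can overlap TTGCG. A match is a description of letters, and no binding was measured here.

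The comparison of E531R with WT asks which transcripts differ when the fusion can no longer bind BCOR. In E531R cells Cebpe and Cebpb rose by 1.83-fold and 1.76-fold, while Cebpa was lower in all 3 E531R libraries than in any WT library without passing the test. Cebpd, Cebpg and Cebpz did not pass either. With limma, 2 of the 6 genes were higher and 0 lower at an adjusted p under 0.05, where 19.9% of all tested genes were called, 10.4% higher and 9.53% lower. edgeR called the same number, 2 higher and 0 lower, with 20.4% of genes called and 9.63% lower. The groups did not overlap for Cebpb, Cebpe and Cebpa, as for 44% of all tested genes, of which 21.2% of the tested total lay higher and 22.8% lower. Of the 6 genes, 3 had an unadjusted p under 0.05 (Cebpa, Cebpb and Cebpe), as had 4245 of the 12991 tested genes with limma, and DESeq2 on the recovered reads called Cebpa lower as well.

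The late granulocyte factor Cebpe had a normalised read count of 3837, 3693 and 3960 in E531R replicates 1, 2 and 3, against 1818, 1720 and 2725 in WT replicates 1, 2 and 3. Every E531R library lay above every WT library, and WT replicate 3 lay well above the other WT libraries. The means were 3830 ± 134 in E531R and 2088 ± 554 in WT (SD, n = 3 each). With limma the log2 fold change was 0.91 with an SE of 0.17 and an adjusted p of 0.0103. The call was lost without E531R replicate 3 (limma adjusted p = 0.0534).

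The inflammatory factor Cebpb followed the same pattern, with 4762, 4239 and 4445 in the E531R libraries and 2214, 2135 and 3282 in the WT libraries. All E531R values lay above all WT values, and WT replicate 3 was again the highest WT value. The means were 4482 ± 263 in E531R and 2544 ± 641 in WT (SD, n = 3 each). With limma the log2 fold change was 0.84 with an SE of 0.17 and an adjusted p of 0.0123. This call was lost without E531R replicate 1 or 3 (limma adjusted p = 0.0606 and 0.0558). Cebpb shares 312 exonic bases, 20.7% of its length, with Tmem189 on the opposite strand. Whether counting used strand is not stated in what was available. Tmem189 had 1151, 1050 and 1110 in E531R and 1087, 1085 and 1423 in WT, with overlapping groups.

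Cebpa, the factor of the granulocyte and monocyte progenitor, had 5067, 4819 and 4885 in E531R libraries, against 5897, 5678 and 8448 in WT libraries. The E531R values were all below the WT values, and most of the WT spread came from replicate 3. Its means were 4924 ± 128 in E531R and 6675 ± 1540 in WT (SD, n = 3 each). The log2 fold change was -0.42 (SE 0.15, 95% interval -0.78 to -0.05; limma adjusted p = 0.108). DESeq2 on the recovered reads gave -0.43 with an adjusted p of 0.0454 and called 20.1% of tested genes, 9.5% lower. The authors' deposited table gives Cebpa a log2 fold change of 0.42, which runs WT over E531R, with an adjusted p of 0.0605. For Cebpe and Cebpb, the authors' deposited table gives adjusted p-values of 3.22e-05 and 8.99e-05.

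Cebpd, the partner of Cebpb in acute inflammation, had 1670, 1586 and 1679 in E531R libraries and 1358, 1334 and 1892 in WT libraries. The E531R values fell between WT replicate 3 and the other WT libraries. Its log2 fold change was 0.13 (95% interval -0.21 to 0.46; limma adjusted p = 0.573). Cebpd shares 562 exonic bases, 15.0% of its length, with Spidr on the opposite strand.

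Cebpg, the member without an activation domain, had 1136, 1161 and 1119 in E531R libraries and 1232, 1404 and 893 in WT libraries. The nucleolar Cebpz had 2607, 2509 and 2570 in E531R libraries and 2795, 3228 and 1904 in WT libraries. In both genes WT replicate 3 was the lowest of the 6 libraries, while in the other 4 members it was the highest of the WT libraries. They differed by -0.02 and -0.01 on the log2 scale, with 95% intervals of -0.40 to 0.36 and -0.45 to 0.43 (limma adjusted p = 0.937 and 0.976). As ratios of E531R to WT these intervals run from 0.756 to 1.28 for Cebpg and from 0.734 to 1.34 for Cebpz, and without WT replicate 3 both genes passed as lower. The reads behind a member's value ran from 772 to 10731 per library.

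**Figure D1:**
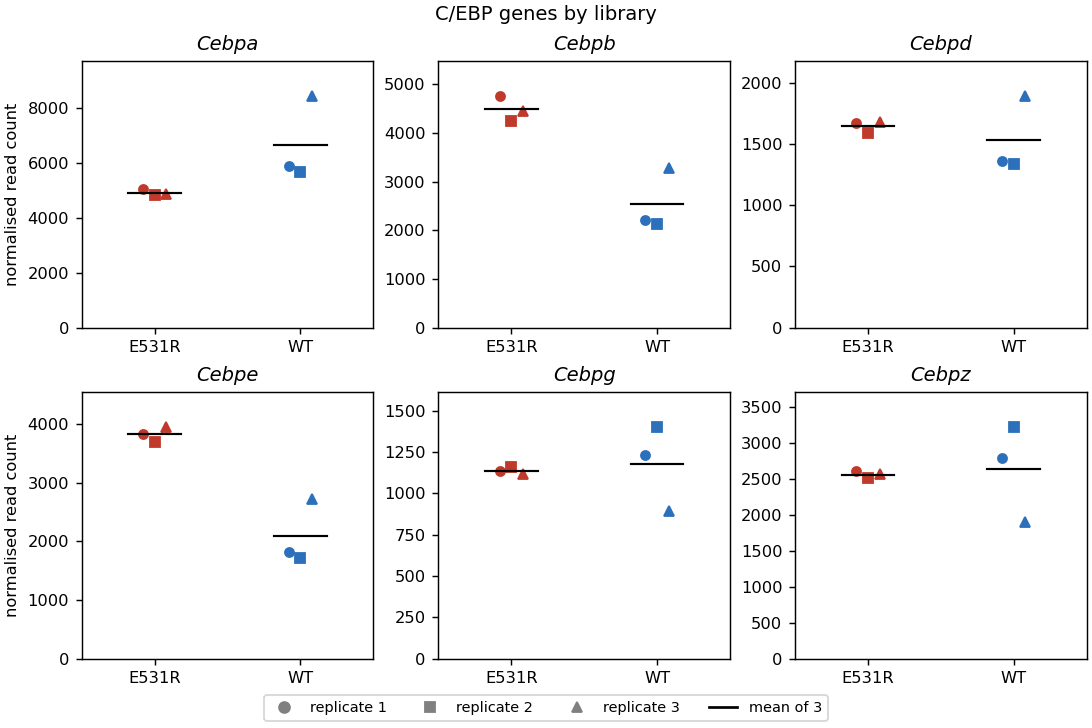
Normalised read count (y axes, from 0) of each C/EBP gene in the 3 E531R libraries (red) and the 3 WT libraries (blue), with the marker shape giving the replicate and a black bar at the mean. Cebpe and Cebpb lie higher in every E531R library (3693 to 3960 and 4239 to 4762) than in any WT library, and WT replicate 3 (blue triangle) stands apart from the other WT libraries in all 6 genes.

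WT replicate 3 stood apart in all 6 genes. It was 1.46, 1.51, 1.41 and 1.54 times the mean of WT replicates 1 and 2 for Cebpa, Cebpb, Cebpd and Cebpe, and 0.677 and 0.632 times that mean for Cebpg and Cebpz. Over 12569 tested genes the median absolute log2 difference of this library from the other WT libraries was 0.318, against 0.0564 for E531R replicate 1 from the other E531R libraries. The difference moved with the GC content of the transcript: its median was -0.74 among genes under 42% GC and 0.42 among genes of 62% or more. Cebpa, Cebpb and Cebpe have 62.6%, 67.2% and 61.5% GC, Cebpd 51.6%, and Cebpg and Cebpz 43.3% and 43.4%. The part of GC content in the members' values was not tested further than by the removal of its trend, given next.

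**Figure D2:**
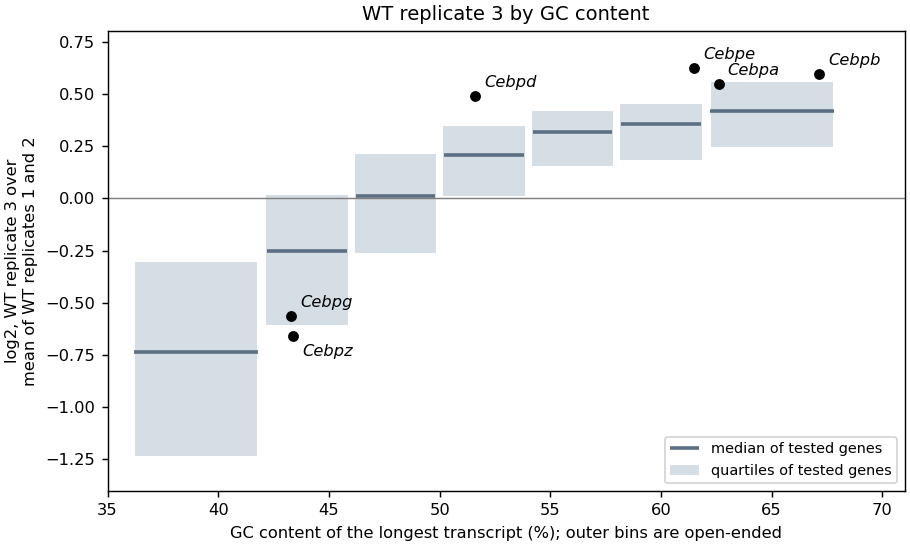
Log2 ratio of WT replicate 3 to the mean of WT replicates 1 and 2 (y axis) by GC content of the longest transcript (x axis), with shaded quartiles and a bar at the median of the tested genes in each bin; the 6 C/EBP genes are black points. Cebpa, Cebpb and Cebpe lie at 61.5% to 67.2% GC with log2 ratios of 0.55 to 0.62, and Cebpg and Cebpz at 43.3% and 43.4% with -0.56 and -0.66.

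Without WT replicate 3 all 6 genes passed, at a setting where 47.4% of all tested genes were called. Cebpe and Cebpb were then higher by a log2 fold change of 1.11 and 1.04, and Cebpd by 0.29 (limma adjusted p = 2.12e-12, 1.39e-11 and 5.71e-05). Cebpa, Cebpg and Cebpz were lower, at -0.23, -0.21 and -0.23 (limma adjusted p = 8.13e-05, 0.0054 and 0.00145). With a GC and length trend removed from each library, chosen after seeing the data, Cebpe (0.97) and Cebpb (0.91) remained higher and Cebpa (-0.28) and Cebpg (-0.22) were lower (limma adjusted p = 0.000169, 0.000102, 0.0164 and 0.0391). That fit called 31.5% of its genes, and Cebpd (0.17) and Cebpz (-0.19) did not pass in it. With the trend removed WT replicate 3 still differed from the other WT libraries in all 6 genes. Its log2 difference was 0.18 to 0.34 for Cebpa, Cebpb, Cebpd and Cebpe, against 0.49 to 0.62 before. For Cebpg and Cebpz it was -0.13 and -0.26, against -0.56 and -0.66 before. What lies behind the remaining difference was not tested.

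**Figure D3:**
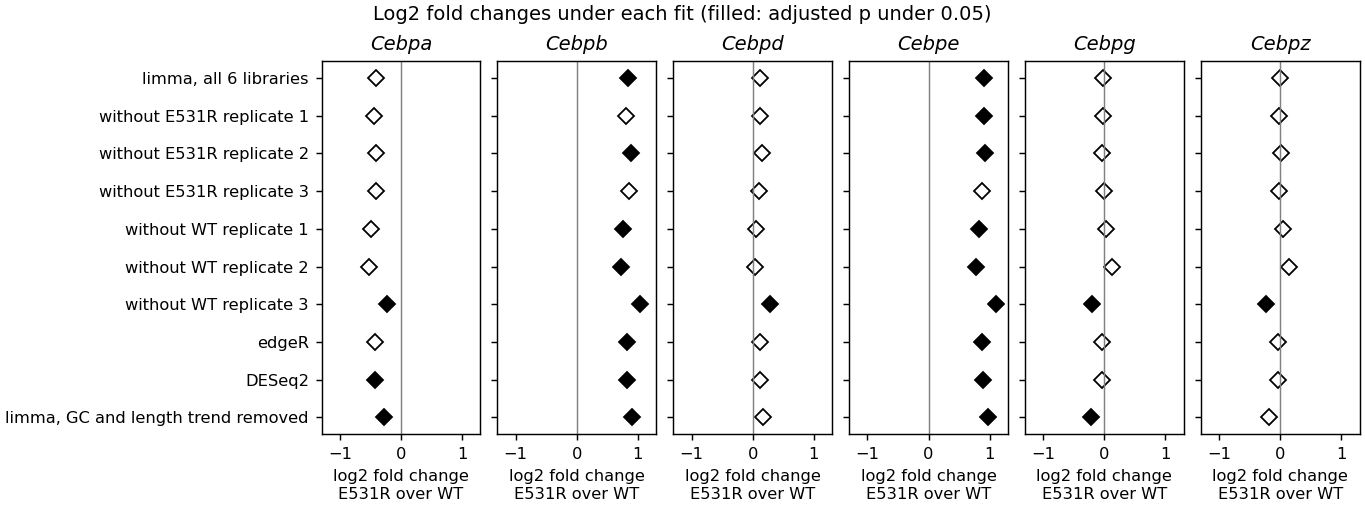
Log2 fold change of E531R over WT (x axes) of each C/EBP gene under 10 fits (rows), with filled symbols at an adjusted p under 0.05. Cebpe and Cebpb lie right of 0 in every row, Cebpa lies left of 0 in every row, and Cebpg and Cebpz change side with the library left out.

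Ratios between members within a library set aside what raises or lowers both genes alike. The ratio of Cebpe to Cebpa was 0.757, 0.766 and 0.811 in E531R libraries, against 0.308, 0.303 and 0.323 in WT libraries. WT replicate 3 thus fell in with the other WT libraries, and the ratio was 2.50 times as high in E531R. The ratio of Cebpb to Cebpa was 0.940, 0.880 and 0.910 in E531R and 0.375, 0.376 and 0.389 in WT, 2.39 times as high. Its coefficient of variation among WT libraries was 1.94%, against 25.2% for the Cebpb value itself. The ratio of Cebpd to Cebpa was 0.330, 0.329 and 0.344 in E531R and 0.230, 0.235 and 0.224 in WT, 1.45 times as high.

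For these 3 ratios the groups did not overlap, as they did not for Cebpa itself. The share of all genes whose ratio to Cebpa separates the groups was not computed. For each of the 3 ratios the exact permutation test over the libraries, two-sided, gave p = 0.1, the smallest that 3 against 3 libraries allow. After adjustment over the 5 ratios tested it was 0.167. A limma fit over all genes, each taken relative to Cebpa in its library, was added after seeing the data. It gave log2 differences of 1.32 for Cebpe, 1.26 for Cebpb and 0.54 for Cebpd (SE 0.084, 0.081 and 0.087; limma adjusted p = 0.00019, 0.000191 and 0.00592). Since Cebpa itself was lower in E531R, this scaling moved the median of all genes to 0.43, so that Cebpd lay only slightly above the typical gene. The fit called 29.3% of its genes, 25.5% higher and 3.73% lower. The ratios of Cebpg and Cebpz to Cebpa overlapped between groups, with an exact permutation p of 0.5 each. Cebpg stood at 0.224, 0.241 and 0.229 of Cebpa in E531R and at 0.209, 0.247 and 0.106 in WT. Cebpe and Cebpb were set against each other after their values were seen, and their ratio was 0.806, 0.871 and 0.891 in E531R and 0.821, 0.805 and 0.830 in WT, with overlapping groups.

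**Figure D4:**
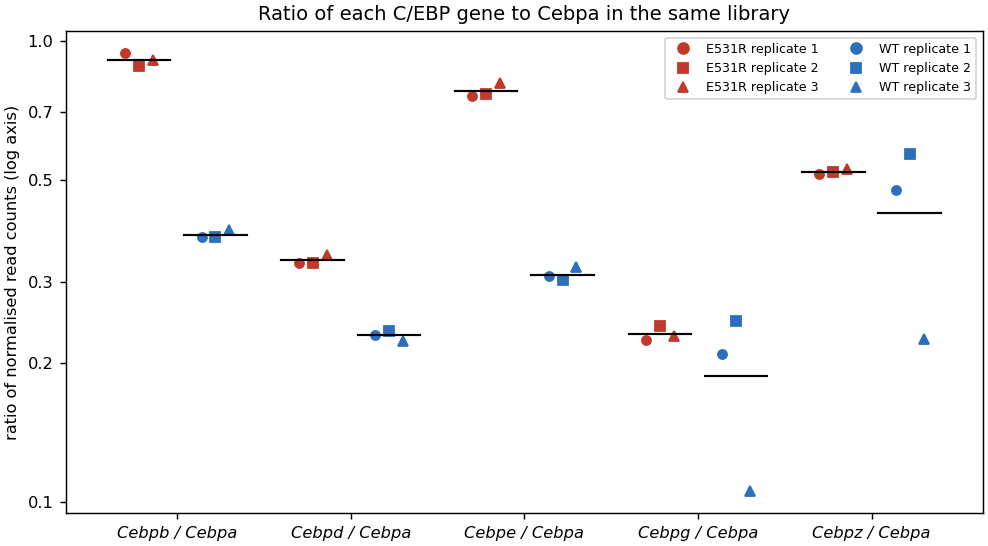
Ratio of each member's normalised read count to that of Cebpa in the same library (log y axis) in E531R (red) and WT (blue), with marker shapes for the replicates and black bars at the means. For Cebpb, Cebpd and Cebpe the libraries of a group lie close together and the groups apart (0.757 to 0.811 in E531R and 0.303 to 0.323 in WT for Cebpe), while for Cebpg and Cebpz WT replicate 3 lies far below.

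Levels of different genes were compared as normalised reads per kilobase of annotated exon. In E531R cells the order was Cebpe (3086 ± 108), Cebpb (2980 ± 175), Cebpa (1868 ± 48.6), Cebpz (550 ± 10.7), Cebpd (439 ± 13.7) and Cebpg (203 ± 3.80) (SD, n = 3). In WT cells it was Cebpa (2532 ± 584), Cebpb (1691 ± 426), Cebpe (1682 ± 446), Cebpz (567 ± 145), Cebpd (408 ± 84.2) and Cebpg (209 ± 46.3) (SD, n = 3). Cebpa thus stood behind Cebpe and Cebpb in E531R and ahead of both in WT. Cebpe and Cebpb did not differ beyond their spread in either group, and Cebpz and Cebpd did not in WT. Cebpa topped every other member in each WT library, and Cebpe and Cebpb both topped Cebpa in each E531R library.

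Of the summed level per kilobase of the 5 bZIP members, Cebpa made up 21.8%, 22.2% and 21.4% in E531R libraries and 38.9%, 38.7% and 38.9% in WT libraries. Cebpe made up 35.996% ± 0.943 in E531R and 25.7% ± 0.881 in WT, and Cebpb 34.7% ± 0.981 and 25.8% ± 0.532 (SD, n = 3 each). These 3 shares varied little within a group, and WT replicate 3 had nearly the same Cebpa share as the other WT libraries. The Cebpg share varied more, with 3.81%, 4.49% and 1.93% in WT replicates 1, 2 and 3. The sum itself was 8827, 8253 and 8647 in E531R and 5756, 5566 and 8247 in WT, so that WT replicate 3 nearly reached the lowest E531R value. In bulk RNA, a different mix of cells and a different amount of RNA per cell cannot be told apart.

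Genes whose values followed each member most closely over the 6 libraries were found by Pearson's r of log2(value + 1) among 9353 genes, as a description across libraries that share 2 groups and WT replicate 3. Plcg2, Csf2rb and Fam32a were nearest to Cebpe (r = 1.000, 0.999 and 0.999), and Agfg2, Csf2rb and Fam32a to Cebpb (r = 0.999, 0.999 and 0.998). Csf2rb encodes the common receptor chain for GM-CSF, IL-3 and IL-5. It was picked for its likeness to Cebpe and Cebpb, so its higher value in E531R (log2 fold change 0.47) is no separate result. Tex261, Edc4 and Chpf2 were nearest to Cebpa (r = 0.999 each), and Pim3, Clic1 and Mapkapk2 to Cebpd (r = 0.998, 0.997 and 0.997). Pcmtd2, Fam204a and Mcm8 were nearest to Cebpg (r = 0.997, 0.995 and 0.995). Dnaja1, Kif2a and Cebpg itself were nearest to Cebpz (r = 0.995, 0.994 and 0.990).

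The cells that express these factors were checked with fixed markers. Calls among the markers stand beside 10.4% of all tested genes called higher in E531R and 9.53% called lower with limma. Kit, the receptor used for the selection, averaged 3335 ± 4.07 in E531R and 3587 ± 99.96 in WT (SD, n = 3 each) and did not pass (limma adjusted p = 0.28). Of the other 5 stem and progenitor markers, Cd34 rose, with means of 1014 in E531R and 505 in WT, and Flt3 fell, with 5.98 in E531R and 42.6 in WT (limma adjusted p = 0.00132 and 0.000246). The 6 markers of neutrophil precursors summed to 292776 to 304262 in E531R and 185108 to 229836 in WT, and 5 of them rose; Elane, Mpo, Prtn3, Ltf, Camp and Ngp are this list, and all 6 are also in the granulocyte target list used next, so the lists are not independent. The 8 markers of monocytes and macrophages summed to 27774 to 30459 in E531R and 26219 to 30981 in WT, with 3 higher and 1 lower. Most of this sum was Ly6c2 (22415 in E531R and 22715 in WT), so the sums say little of the other markers. Csf1r (1016 in E531R and 178 in WT), Adgre1 (1123 and 292) and Mpeg1 (3649 and 382) rose, and Ccr2 fell (788 and 4448). Of 8 eosinophil, basophil and mast cell markers, whose lineages also use Cebpa and Cebpe, the sums were 193 to 215 in E531R and 177 to 193 in WT. Within that sum Siglecf rose, with 132 in E531R and 55.3 in WT, and Mcpt8 fell, with 68.4 in E531R and 130 in WT, while Prss34 and Mcpt4 were at 0 in every library. The erythroid globin genes Hba-a1 and Hbb-bs were at 0 in every library. Of 6 liver and fat markers, 5 stayed at means of 3.48 or less in E531R and 1.17 or less in WT, and Fabp4, which macrophages also express, averaged 110 ± 10.6 in E531R and 2.59 ± 1.74 in WT. Markers of megakaryocytes summed to 424 to 467 in E531R and 91.0 to 124 in WT, and 3 of 5 rose. Most of this sum was Vwf (355 in E531R and 85.9 in WT), while Itga2b averaged 5.79 in E531R and 5.59 in WT. Markers of B, T and NK cells summed to 269 to 293 in E531R and 619 to 778 in WT, nearly all of it Nkg7 (276 in E531R and 677 in WT), and Ms4a1, Cd3e and Gzma were at 0. Those of dendritic cells summed to 72.0 to 91.5 in E531R and 43.6 to 52.0 in WT, where Itgax rose (74.3 in E531R and 4.84 in WT) and Flt3 fell. The part of a changed cell mix in the C/EBP differences was not tested.

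Known targets of C/EBP factors in granulocytes were higher in E531R in 24 of 27 tested genes and lower in 1. Over all tested genes, 10.4% were higher and 9.53% lower. The median log2 fold change of the list was 2.45, beside 0.01 over all tested genes. Like the lists below, this list was drawn from general knowledge, with earlier results of these data known. Fpr1, Fpr2 and Mmp9, counted among the 24, averaged 5.14 or less in WT and met the minimum mean of 10 through E531R alone. Genes of the secondary granule, which need Cebpe in the mouse, were among the higher targets. Ngp, a neutrophil granule protein, had 20438, 19993 and 21820 in E531R libraries and 2899, 2923 and 4147 in WT libraries, 6.24 times as high (limma adjusted p = 4.00e-05). Camp, the cathelicidin precursor, averaged 2099 ± 183 in E531R and 214 ± 35.9 in WT, and Fcnb, a ficolin, 755 ± 53.7 and 21.9 ± 6.91 (SD, n = 3 each; limma adjusted p = 1.26e-05 for both). These 3 genes were named after their values were seen. By the rule for named genes the smallest adjusted p-values belonged to Cybb, S100a9, Chil3, Ltf, S100a8 and Ear2, with log2 fold changes of 3.65 to 5.24. Cybb, the catalytic chain of the phagocyte NADPH oxidase, averaged 3203 ± 58.1 in E531R and 83.8 ± 1.03 in WT, a 38.2-fold difference and much larger than that of any C/EBP gene. Ear2 belongs to a family of near-identical ribonuclease genes, so its count is uncertain.

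Csf3r, Il6ra and the primary granule genes belong to the earlier stage, where Cebpa acts. The chemoattractant receptor genes of the list, Fpr2, Fpr1, Ltb4r1 and Cxcr2, rose with log2 fold changes of 5.90, 4.42, 1.67 and 0.72. The Cxcr2 call was lost without any E531R library or WT replicate 1 (limma adjusted p = 0.106 to 0.169). Csf3r, the G-CSF receptor, averaged 1298 ± 53.1 in E531R and 1009 ± 31.5 in WT (0.36 in log2 fold change, with a limma adjusted p of 0.0106), a call lost without E531R replicate 1 or 2 (0.057 and 0.0721). Il6ra, with 0.12, and Elane, with 0.26, did not pass (limma adjusted p = 0.386 and 0.217). Ctsg, a primary granule protease, was the listed gene that fell, with a log2 fold change of -0.84 (limma adjusted p = 0.00384). Mpo and Prtn3, also of the primary granule, rose by 0.56 and 0.67 on the log2 scale (limma adjusted p = 0.00631 and 0.0129), the Prtn3 call being lost without any E531R library or WT replicate 1 (0.0524 to 0.0658). No test compared the early with the late genes.

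The promoters of 3 granule genes are shown because each holds the C/EBP pattern TTGCNNAA, searched on both strands and marked in capitals, and because their transcripts differed far more than those of the C/EBP genes.
Ngp (chr9:110419558-110419857, plus strand): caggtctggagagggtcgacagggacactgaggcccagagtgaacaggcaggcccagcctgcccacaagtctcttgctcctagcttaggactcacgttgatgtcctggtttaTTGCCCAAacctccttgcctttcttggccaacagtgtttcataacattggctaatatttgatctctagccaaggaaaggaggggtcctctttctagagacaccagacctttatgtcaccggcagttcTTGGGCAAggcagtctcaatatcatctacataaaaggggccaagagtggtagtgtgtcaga
Ltf (chr9:111019042-111019341, plus strand): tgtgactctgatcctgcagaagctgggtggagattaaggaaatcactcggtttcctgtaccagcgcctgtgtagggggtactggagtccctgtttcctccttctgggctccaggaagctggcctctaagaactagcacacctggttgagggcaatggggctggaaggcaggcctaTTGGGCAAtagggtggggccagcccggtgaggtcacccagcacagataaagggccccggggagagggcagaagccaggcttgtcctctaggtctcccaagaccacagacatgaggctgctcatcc
Fcnb (chr2:28084829-28085128, minus strand): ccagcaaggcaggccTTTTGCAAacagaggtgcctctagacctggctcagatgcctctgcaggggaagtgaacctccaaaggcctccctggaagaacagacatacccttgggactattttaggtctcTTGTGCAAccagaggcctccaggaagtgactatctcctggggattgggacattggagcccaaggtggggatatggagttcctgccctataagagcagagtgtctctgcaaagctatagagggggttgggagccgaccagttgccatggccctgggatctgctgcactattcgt
The matches lie at -138 to -131 and -11 to -4 in Ngp, at -75 to -68 in Ltf and at -235 to -228 and -123 to -116 in Fcnb. Of the 28 granulocyte targets, 25 were in the promoter table and 8 of these held the pattern, 32.0%, beside 12.2% of all 27025 genes. Of 14 monocyte and macrophage targets with a promoter listed, 4 held it, 28.6%, and of the 9 among them that rose in E531R 1 held it, 11.1%. Of the 22 granulocyte targets with a promoter listed that rose, 8 held it, 36.4%. The lists hold known targets, so these shares are not independent of such sites.

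Targets of C/EBP factors in monocytes and macrophages, where Cebpb has its best known part, rose in 13 of 16 tested genes and fell in 0. Over all tested genes 10.4% were higher and 9.53% lower, and the median log2 fold change of the list was 1.24. Il1b, counted among the 13, averaged 57.0 in E531R and 2.87 in WT and met the minimum mean of 10 through E531R alone. Lpl, lipoprotein lipase, averaged 9364 ± 321 in E531R and 303 ± 42.6 in WT (SD, n = 3 each), 30.9 times as high (limma adjusted p = 1.44e-06). Csf1r, the M-CSF receptor, averaged 1016 ± 64.7 in E531R and 178 ± 38.05 in WT, and Csf2ra, a GM-CSF receptor chain, 8874 ± 542 and 4669 ± 149 (limma adjusted p = 7.68e-05 and 0.000187). The acute phase gene Saa3, the cytokine gene Tnf and the antagonist gene Il1rn rose with log2 fold changes of 2.90, 1.10 and 2.85. Of the list's 22 genes, 6 lay under the minimum mean, among them Il6, Il10, Nos2, Arg1 and Il12b; several of these are known Cebpb targets of stimulated macrophages.

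bZIP relatives, which can pair with C/EBP proteins or compete for their sites, rose in 5 of 19 tested genes and fell in 1. The share of all tested genes was 10.4% higher and 9.53% lower, and the median log2 fold change of the relatives was 0.20. Atf3, a stress-induced repressor, averaged 61.0 ± 10.7 in E531R and 3.54 ± 3.76 in WT, a log2 fold change of 4.06. WT replicate 3 held most of the Atf3 reads in WT (7.87, against 1.596 and 1.148 in WT replicates 1 and 2), and without it the WT mean was 1.37 and the log2 fold change 4.70. The AP-1 genes Fos and Jun rose with log2 fold changes of 2.29 and 1.51. Fosl2 and Jdp2 rose with 0.68 and 0.58, the Jdp2 call being lost without any library other than WT replicate 3 (limma adjusted p = 0.0569 to 0.0795). Batf2 averaged 2.09 ± 0.775 in E531R and 18.3 ± 2.35 in WT (SD, n = 3 each), at -2.67 in log2 fold change (limma adjusted p = 0.00134). It had 2, 2 and 3 reads in the E531R libraries. Atf3 and Batf2 met the minimum mean of 10 only through the group where they were high. Ddit3, which encodes the CHOP protein that was once called C/EBP zeta and blocks other C/EBP factors, had 226, 206 and 206 in E531R and 204, 185 and 165 in WT. It did not pass (log2 fold change 0.21; limma adjusted p = 0.262). Without WT replicate 3, 9 relatives were higher and 1 lower, beside 24.3% of all tested genes higher and 23.1% lower.

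Genes that act on C/EBP mRNA or protein passed in 2 of 25 tested cases, both higher, where 19.9% of all tested genes passed. Their median log2 fold change was 0.12. Mapk3 encodes ERK1, a kinase that phosphorylates Cebpa and Cebpb proteins, and averaged 4074 ± 190 in E531R and 2713 ± 527 in WT (log2 fold change 0.60; limma adjusted p = 0.0206). Smarca2, a chromatin remodelling ATPase that Cebpa and Cebpb recruit, had 0.52 (limma adjusted p = 0.0443). The Mapk3 call was lost without any library other than WT replicate 3 (limma adjusted p = 0.0607 to 0.091), and the Smarca2 call without any E531R library or WT replicate 2 (0.0591 to 0.165). Trib2, which directs Cebpa protein to degradation, was at 0 in all 6 libraries, and its relative Trib1 lay between 11.1 and 19.5 in E531R and 3.44 and 10.2 in WT (limma adjusted p = 0.167). Trib3, Cdk4, Ep300 and Csnk2a1 had log2 fold changes of 0.38, -0.36, 0.23 and 0.25 and did not pass (limma adjusted p = 0.0713 to 0.130). Without WT replicate 3, 11 were higher and 4 lower, where 24.3% of all tested genes were higher and 23.1% lower.

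Transcription factors that control C/EBP genes or work beside them rose in 13 of 28 tested genes and fell in 2. Of all tested genes 10.4% rose and 9.53% fell, and the median log2 fold change of these factors was 0.28. Gfi1b, Egr1 and Egr2, counted among the 13, averaged 7.37 or less in WT. They met the minimum mean of 10 through E531R alone. Runx1, which binds the Cebpa enhancer in mouse progenitors, averaged 2049 ± 10.4 in E531R and 1413 ± 40.1 in WT (SD, n = 3 each), 1.45 times as high (limma adjusted p = 0.00107). Klf4, a factor of monocytes, averaged 171 ± 15.6 in E531R and 12.0 ± 5.98 in WT. Spi1 (PU.1), the partner of C/EBP factors on myeloid genes, averaged 8345 ± 354 in E531R and 5606 ± 1220 in WT (log2 fold change 0.59; limma adjusted p = 0.0304). Spi1 and Gfi1, the repressor that acts with Cebpe in neutrophils (log2 fold change 0.33, limma adjusted p = 0.0211), lost their calls without any library other than WT replicate 3 (limma adjusted p = 0.0666 to 0.119). Id2, Egr1, Mxd1 and Tal1 also rose, with log2 fold changes of 2.92, 3.75, 0.86 and 1.26. The genes that fell were Erg and Gata2, factors of stem and early progenitor cells. Erg averaged 1081 ± 33.2 in E531R and 1817 ± 223 in WT, and Gata2 32.8 ± 6.19 and 83.1 ± 22.2 (at -0.74 and -1.29 in log2 fold change; limma adjusted p = 0.00245 and 0.0119), the Gata2 call being lost without E531R replicate 1 or 2 (0.0579 and 0.0568). Spi1, Gfi1, Ddit3, Csf3r, Il6ra, Elane, Mpo, Prtn3, Trib1 and Trib2 were named with their values already known. So were Fpr1, Fpr2, Ltb4r1, Cxcr2 and Mmp9. Without E531R replicate 1, 2 or 3 the number of higher upstream factors was 7, 8 and 7, and the share of all genes there was not computed. It was 19 without WT replicate 3, where 24.3% of all tested genes were higher.

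Cebpz was set beside 26 genes of ribosome assembly in the nucleolus, where its yeast counterpart works with that of Noc2l. Of these 0 rose and 3 fell with limma, where 10.4% of all tested genes rose and 9.53% fell. The median log2 fold change of the 26 genes was -0.15. Urb1, Wdr12 and Ddx51 fell by 0.34, 0.34 and 0.33 on the log2 scale (limma adjusted p = 0.0101, 0.0125 and 0.0385), and Ppan, Fbl and Ddx18 had -0.30, -0.27 and -0.15 without passing. The Urb1 call was lost without any of the E531R libraries (limma adjusted p = 0.0597 to 0.0654), the Wdr12 call without E531R replicate 1 or 2 (0.077 and 0.0828), and the Ddx51 call without any library other than WT replicate 3 (0.0567 to 0.152). Without WT replicate 3, where Cebpz itself passed toward lower values, 17 of the 26 were lower and 1 higher, beside 23.1% of all tested genes lower and 24.3% higher.

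**Figure D5:**
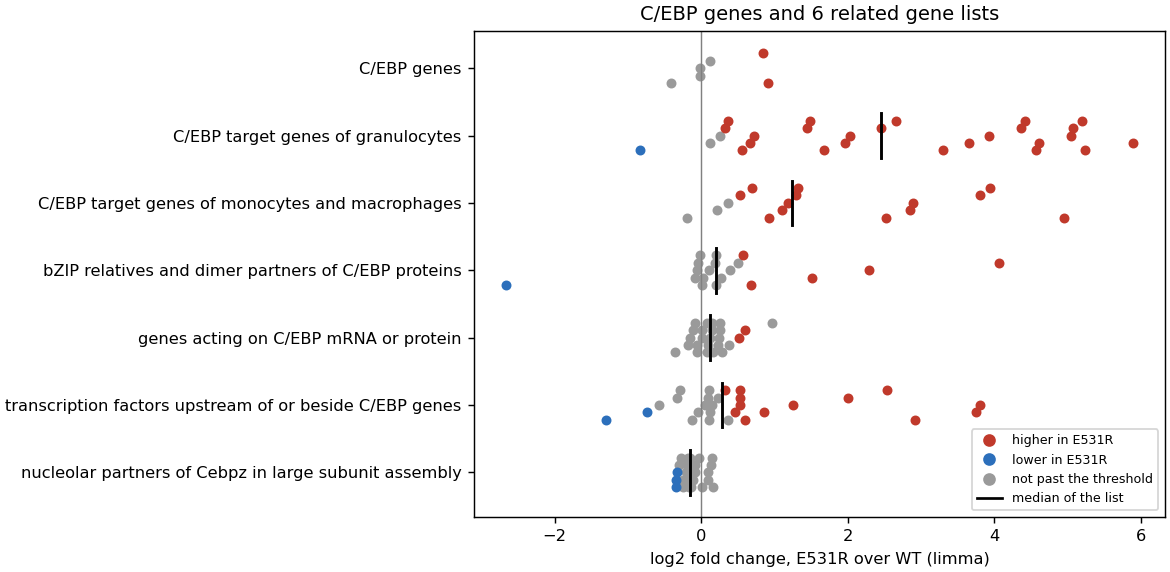
Log2 fold change of E531R over WT with limma (x axis) of the 6 C/EBP genes and of the tested members of 6 related gene lists (rows); red points were higher, blue points lower and grey points not past the threshold, and black bars are list medians. The granulocyte and monocyte target medians lie at 2.45 and 1.24, to the right of Cebpe (0.91) and Cebpb (0.84), and the other 4 medians lie between -0.15 and 0.28.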

How the data were processed

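Total RNA of 6 mouse bone marrow cultures, 3 with MLL-AF9 E531R and 3 with MLL-AF9 WT, was measured by RNA-seq; sample titles gave the groups. The build GRCm38 and the tools HISAT2 (alignment), featureCounts, DESeq2, cutadapt, SAMtools and FastQC are named per the submitters' processing notes. The sources used here give neither their versions nor the annotation or strand setting. The deposited columns hold a signal, gene read counts that the authors divided by 1 size factor per library. All values (100%) were whole multiples of 1 read within 0.001 reads, so whole reads were recovered, 14161139 to 33459668 per library. The deposited table's log2 fold change, standard error, score (Wald statistic), p-value and adjusted p-value are the authors' own, per the file headers, with folds as WT over E531R.

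The main test was limma 3.58.1 (R 4.3.3) (trend option), applied to log2(value + 1) of genes with a mean of at least 10, with Benjamini-Hochberg adjustment over all 12991 genes, no covariate and a threshold of 0.05. It was tested on simulated counts of equal dispersion, in which no library stood apart as WT replicate 3 does. That run says nothing of how the test behaves with such a library. Fold changes on this scale understate those of low genes. The minimum mean was taken over all 6 libraries, so a gene near 0 in 1 group could be tested through the other group alone. Ratios to Cebpa used an exact permutation test. Lengths, GC content and positions come from GENCODE M21, and promoters from RefSeq. Alternatives were other pseudocounts, filters and scalings, edgeR 4.0.16, DESeq2 1.42.0 (edgeR called 1393 genes higher and 1251 lower), the replicate block, and each library left out. The members, 6 gene lists and tests were chosen with earlier results of these data known. Named genes are the members, up to 6 of each list with the smallest adjusted p and up to 2 that fell, and the 3 genes most like each member. Lists were drawn from general knowledge and have no set test. The sources mention no molecular identifiers, so reads of 1 molecule may be counted more than once.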

Additional observations from a re-analysis of the deposited data

How the results depend on the processing

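Cebpe and Cebpb stayed higher, and Cebpa lower, under every alternative run. With each library left out in turn the log2 fold changes ran from 0.78 to 1.11 for Cebpe, 0.73 to 1.04 for Cebpb, -0.52 to -0.23 for Cebpa, 0.037 to 0.29 for Cebpd, -0.21 to 0.12 for Cebpg and -0.23 to 0.15 for Cebpz, and both the number of C/EBP genes higher and the number lower ran from 0 to 3. Cebpa passed with DESeq2 (-0.43, adjusted p = 0.0454), which then called 1 C/EBP gene lower, and after removal of the GC and length trend (-0.28), as did Cebpg (-0.22), making 2 lower. With TMM scaling Cebpz had a log2 fold change of 0.00123, of the opposite sign (limma adjusted p = 0.997). The 3 ratios to Cebpa that passed with limma over all genes did so at 1.26 for Cebpb, 0.54 for Cebpd and 1.32 for Cebpe, a test that can go below the exact test's smallest p.

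Of the lists, leaving out 1 library gave 0 to 1 lower monocyte targets, 4 to 9 higher bZIP relatives, 0 to 11 higher and 0 to 4 lower genes acting on C/EBP products, 7 to 19 higher and 1 to 4 lower upstream factors, and 0 to 1 higher and 0 to 17 lower nucleolar genes. With the GC and length trend removed these were 1, 9, 7 and 3, 14 and 4, and 1 and 7. That fit called 15.7% of its genes higher and 15.7% lower. The largest counts with a library left out came without WT replicate 3, where 24.3% of all tested genes were higher and 23.1% lower. The lower bZIP relatives numbered 2 with no filter and 0 at a mean of at least 50, which leaves out Batf2, and DESeq2 called 1 gene acting on C/EBP products lower. The cause of the other shifts was not tested.

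Deviations of same-numbered libraries correlated at 0.00174, 0.192 and 0.238 across genes, and those of different-numbered libraries at -0.231 to 0.177. Deviations were taken from the mean of 3 libraries, so these values cannot decide whether the numbers mark pairs. The main test did not pair them. With the replicate block the Cebpe and Cebpb calls held (0.91 and 0.84, limma adjusted p = 0.00831 and 0.0141), and the block changed no call among the 6 genes. Whether sequencing depth limits the members was not tested.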
